A study of Mus musculus with 36 samples.

Results

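The matrix metalloproteinases (MMPs) and their tissue inhibitors (TIMPs) were described in a mouse fibroblast-like chondrocyte line: 7 MMPs (*Mmp3*, *Mmp13*, *Mmp10*, *Mmp9*, *Mmp2*, *Mmp14* and *Mmp19*) and 3 TIMPs (*Timp1*, *Timp2* and *Timp3*). Members were taken by gene symbol, and each of the 10 symbols matched 1 gene among the 53421 genes of the count table. The cells are conditionally immortalised, and the study cultured them without the conditions that keep the immortalising gene active. They were wild type (WT) throughout and were transfected with 1 of 2 siRNA pools at 50 nM by the labels (10 nM by the study's methods), either a non-targeting pool (NT) or a pool against *Ift88* (IFT88siRNA). *Ift88* encodes intraflagellar transport protein 88, which is needed to build and maintain the primary cilium. Cells were kept without IL-1β (0 h) or given 10 ng/ml of this inflammatory cytokine for 1, 2, 4, 8 or 24 h, and poly(A) RNA was sequenced from 3 replicates of each of the 12 conditions, 36 libraries in all. The design asks how IL-1β changes the transcriptome with time and whether depletion of IFT88 alters that response. No untreated library at 1 to 24 h was analysed here, so IL-1β and time in culture cannot be told apart, and 1 pool per target means that an effect of IFT88 loss and another effect of that pool cannot be told apart. The labels do not say that replicates were separate cultures, so the p-values measure the spread between these libraries, which may be technical.

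MMPs are secreted or membrane-bound zinc proteases that cut the components of the extracellular matrix. They are made as inactive zymogens and are switched on when a propeptide is removed, often by plasmin or by another MMP. TIMPs bind the active site of MMPs and block it, and TIMP2 also takes part in the activation of proMMP2 by MMP14 at the cell surface. In cartilage, MMP13 is the main collagenase acting on type II collagen, and MMP3 (stromelysin-1) cuts proteoglycans and activates other proMMPs. Expression of the inducible MMP genes by IL-1 is known to run through AP-1, a dimer of FOS and JUN family proteins, and through NFκB.

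The count totals on genes were 19337022 to 38304127 per library, with a median of 21672803.5 in NT and 25873754 in IFT88siRNA. *Ift88* itself was at 5.83 to 10.2 CPM (counts scaled to a common library size) in the 18 NT libraries and at 1.43 to 3.10 CPM in the 18 IFT88siRNA libraries, and the groups did not overlap at any time point. Of 11 chondrocyte markers, *Col11a1* (11.7 to 92.9 TPM, a transcript level per length), *Comp* (4.18 to 22.0 TPM) and *Sox9* (5.98 to 34.5 TPM) were present, whereas *Acan*, the cartilage proteoglycan gene, reached no more than 0.206 TPM and *Matn1*, *Matn3* and *Col9a1* were also under 1 TPM in every library. The 8 fibroblast markers together summed to 3587 to 8105 TPM. The 8 leukocyte and macrophage markers summed to 15.6 to 50.0 TPM, nearly all from *Cd14*, *Cd68* and *Lyz2*, with *Ptprc*, *Adgre1* and *Csf1r* under 1 TPM throughout. The 5 neutrophil markers summed to 0 to 24.8 TPM and the 4 endothelial markers to 0.388 to 1.78 TPM.

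*Mmp13*, *Mmp3* and *Mmp10* lie close together on chromosome 9 of GRCm38, all on the + strand, in the order *Mmp13* (chr9:7272514-7283331), *Mmp3* (chr9:7445822-7455975) and *Mmp10* (chr9:7502352-7510240). *Mmp3* starts 162.5 kb after the end of *Mmp13*, and *Mmp10* starts 46.4 kb after the end of *Mmp3*. Altogether 10 genes of the family lie in 427.1 kb there, and the other members lie on other chromosomes: *Mmp9* on 2, *Mmp2* on 8, *Mmp19* and *Timp3* on 10, *Timp2* on 11, *Mmp14* on 14 and *Timp1* on X. The promoters of these 3 genes are shown because they are the members that differed between the siRNA groups, beside those of *Timp1* and *Timp3*, which IL-1β also raised. Each is 120 bases before the RefSeq transcript start (GRCm38.p6, + strand, 5′ to 3′), except *Timp3*, for which bases 160 to 41 before the start are given. They lie at chr9:7272394-7272513, chr9:7445702-7445821, chr9:7502222-7502341, chrX:20870046-20870165 and chr10:86300252-86300371 in the order below. Capitals mark the AP-1 word TGACTCA, or TGAGTCA where it is read on the other strand, and the TATA box word TATAAAA.
Mmp13: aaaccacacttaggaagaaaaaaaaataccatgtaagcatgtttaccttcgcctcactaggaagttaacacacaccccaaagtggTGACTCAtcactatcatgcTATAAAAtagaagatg
Mmp3: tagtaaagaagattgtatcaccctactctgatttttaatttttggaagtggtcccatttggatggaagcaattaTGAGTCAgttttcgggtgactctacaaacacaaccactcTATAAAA
Mmp10: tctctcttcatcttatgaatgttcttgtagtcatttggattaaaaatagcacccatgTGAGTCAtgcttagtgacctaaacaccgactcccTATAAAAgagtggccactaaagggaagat
Timp1: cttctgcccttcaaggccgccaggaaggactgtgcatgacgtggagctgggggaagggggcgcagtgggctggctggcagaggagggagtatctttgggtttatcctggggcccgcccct
Timp3: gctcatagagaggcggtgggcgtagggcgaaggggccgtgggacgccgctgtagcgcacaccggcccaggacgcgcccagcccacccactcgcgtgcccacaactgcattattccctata

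In the 250 bases before the start, *Mmp13*, *Mmp3* and *Mmp10* each held 1 AP-1 word and 1 TATA word. The AP-1 word began 35 bases before the start in *Mmp13*, 46 before it in *Mmp3* and 63 before it in *Mmp10*, and the TATA word followed it in all 3. Neither word was found in either direction in *Mmp14*, *Timp1*, *Timp2* or *Timp3*. Of 32851 RefSeq mouse promoters of this length, 4.46% held the AP-1 word and 4.98% the TATA word. A κB word, searched on both strands, was in 0.356% of all promoters and in no member searched. *Mmp9*, *Mmp2* and *Mmp19* had no entry in the promoter table. Of the other family genes on chromosome 9, *Mmp1a*, *Mmp1b*, *Mmp7* and *Mmp12* held the AP-1 word as well. A word match describes these letters alone and does not show that a factor binds there.

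**Figure D1:**
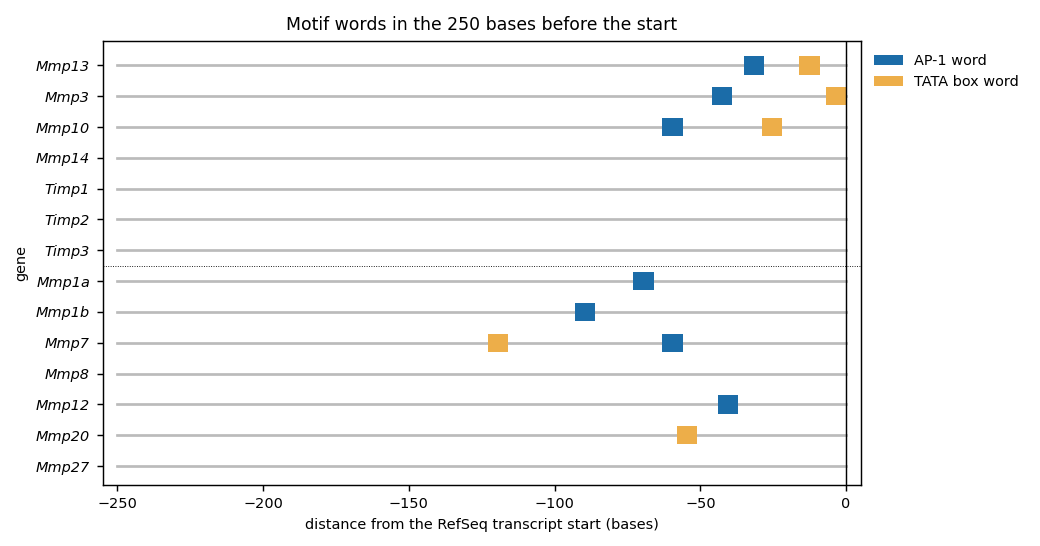
Positions of the AP-1 and TATA box words (bars) in the 250 bases before the RefSeq start of 14 genes, in bases from the start; 7 members are above the dotted line and 7 other family genes of chromosome 9 below it. *Mmp13*, *Mmp3* and *Mmp10* are the members that hold either word.

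Per transcript length, the TIMPs and *Mmp14* stood far above the other members before IL-1β. In NT at 0 h, *Timp2* was at 640 ± 19 TPM, *Timp3* at 623 ± 22.0, *Timp1* at 319 ± 4.29 and *Mmp14* at 250 ± 1.06 (SD, n = 3). The values of *Timp2* (618 to 654 TPM) and *Timp3* (600 to 644 TPM) overlapped. *Mmp2* followed at 12.8 ± 0.635 TPM and *Mmp19* at 3.63 ± 0.155, and *Mmp10*, *Mmp9*, *Mmp13* and *Mmp3* were all under 1 TPM on average, with overlapping values. *Mmp14* encodes the membrane-bound collagenase that activates proMMP2, and it made up 93.2% ± 0.141 of the TPM of the 7 MMPs in NT at 0 h. At 8 h the order in NT was *Timp1* (1913 ± 44.0 TPM), *Timp3* (859 ± 30.4), *Timp2* (635 ± 6.04), *Mmp14* (247 ± 2.66), *Mmp13* (17.0 ± 1.08), *Mmp2* (9.22 ± 0.938), *Mmp3* (5.98 ± 0.453), *Mmp19* (5.49 ± 0.377), *Mmp10* (4.13 ± 1.18) and *Mmp9* (0.760 ± 0.123). The ranges of *Mmp3* and *Mmp19* overlapped at 8 h, as did those of *Mmp19* and *Mmp10*.

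The summed TPM of the 3 TIMPs rose from 1582 ± 36.8 at 0 h to 3601 ± 88.2 at 4 h in NT, while that of the 7 MMPs was 268 ± 1.5 and 279 ± 10.3. The TIMP sum was thus 5.90 ± 0.119 times the MMP sum at 0 h, 12.9 ± 0.270 times at 4 h and 11.8 ± 0.107 times at 8 h. In IFT88siRNA the same quantity was 5.01 ± 0.269 at 0 h, 11.5 ± 0.738 at 4 h and 10.6 ± 0.376 at 8 h (SD, n = 3). With RPKM computed from the counts in place of TPM the ratios at 0 h were 8.89 in NT and 7.55 in IFT88siRNA, over 1.5 times the TPM values. These are ratios of transcript levels and say nothing of protein or activity. The MMP sum covers the 7 members only, so the ratios and shares are not those of all MMPs. Outside it, in NT at 0 h, *Mmp23* was at 52.8 TPM, *Mmp11* at 38.3, *Mmp16* at 29.9, *Mmp15* at 10.5 and *Mmp28* at 6.63. *Mmp3*, *Mmp13* and *Mmp10* together were 0.431% ± 0.0953 of the MMP sum in NT at 0 h and 9.36% ± 0.539 at 8 h. In IFT88siRNA they were 0.253% ± 0.0672 at 0 h and 3.24% ± 0.432 at 8 h. In RPKM these shares were 0.891% and 17.5% in NT at 0 and 8 h, and 0.505% and 6.34% in IFT88siRNA. The share of *Mmp14* in NT at 0 h was 87.5% in RPKM and 93.2% in TPM. No test was made of the sums or their ratios.

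**Figure D2:**
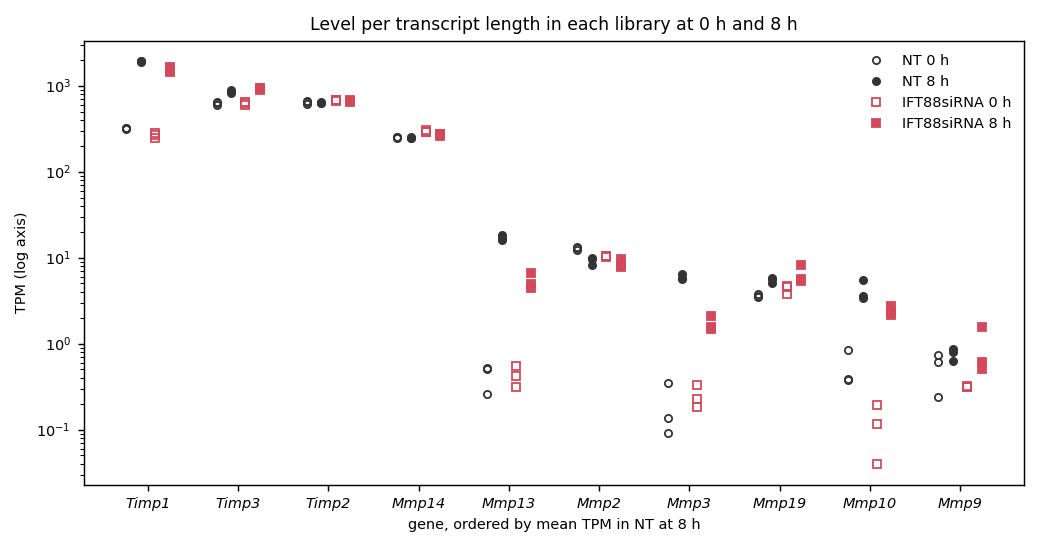
TPM of each member in each library at 0 h (open) and 8 h (filled) for NT (circles) and IFT88siRNA (squares), on a log axis, ordered by the mean in NT at 8 h. The TIMPs and *Mmp14* lie above 200 TPM, and the other members lie below 20 TPM.

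In NT 8 of the 10 members changed with IL-1β, and *Mmp13*, *Mmp3*, *Timp1*, *Mmp10* and *Mmp19* showed the largest changes. Calls required both a fold change over 1.5 and, after adjustment over all genes tested, p under 0.05. All 10 members passed the filter on low counts in this comparison, and the 5 time points were tested together against 0 h, where 50% of the 16048 genes tested were called, so that 8 of 10 stands beside a high background. *Mmp2* and *Timp2* had adjusted p under 0.05 but stayed within 1.5-fold. By time point, 2 of 10 members were called at 1 h (18.7% of all genes), 5 at 2 h (27.3%), 6 at 4 h (28.7%), 5 at 8 h (19.7%) and 6 at 24 h (16.3%). Their median log2 change was 0.13, 0.50, 1.51, 0.68 and 1.22 in that order, against medians over all genes from −0.019 to −0.0077. The 5 comparisons share the 0 h libraries.

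The collagenase gene *Mmp13* was near its floor until 2 h and then rose steeply. It was at 0.676, 0.660 and 0.355 CPM in the 3 NT libraries at 0 h (16, 16 and 8 counts), at 17.8, 15.0 and 17.6 CPM at 4 h, at 25.5, 21.7 and 23.6 CPM at 8 h and at 11.6, 8.70 and 8.43 CPM at 24 h. The call at 2 h (0.95 ± 0.32, adjusted p = 0.0123) was lost without replicate 3 (0.79, adjusted p = 0.0795). Every library from 4 h on was above every library at 0, 1 and 2 h. The rise from 0 h was 29.5-fold at 4 h (log2 4.88 ± 0.18 SE, adjusted p = 2.51e-17), 41.3-fold at 8 h (5.37 ± 0.17) and 16.7-fold at 24 h (4.06 ± 0.20). Between 2 and 4 h alone it rose 15.3-fold, and from 8 to 24 h it fell to 40.3% of its level (adjusted p = 2.24e-10).

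*Mmp3* rose with *Mmp13* but stayed up. Its values in NT were 0.0845, 0.124 and 0.310 CPM at 0 h (2, 3 and 7 counts), 3.12, 2.94 and 3.03 CPM at 4 h, 5.34, 6.04 and 5.49 CPM at 8 h and 4.97, 4.05 and 5.08 CPM at 24 h. The libraries of 24 h lay just below those of 8 h without overlap, and both lay above those of 4 h. On the log2 scale the change from 0 h was 1.48 ± 0.42 at 2 h (adjusted p = 0.00405), 4.11 ± 0.29 at 4 h, 5.0 ± 0.25 at 8 h and 4.74 ± 0.26 at 24 h. With 2 to 7 counts at 0 h these folds are uncertain in size. The 2 h call was lost without replicate 1 (1.25, adjusted p = 0.0521) or replicate 2 (0.95, adjusted p = 0.152).

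*Mmp10* (stromelysin-2, a close relative of *Mmp3* that also activates proMMPs) had 6, 8 and 16 counts in NT at 0 h, 2, 1 and 1 at 1 h, 33, 31 and 38 at 4 h, 106, 66 and 88 at 8 h and 41, 33 and 30 at 24 h. The gene was thus lower at 1 h and highest at 8 h, and the library of replicate 1 was above the other two at 8 h. The log2 change was 2.04 ± 0.34 at 4 h (adjusted p = 1.31e-05), 3.11 ± 0.29 at 8 h and 1.54 ± 0.34 at 24 h, and from 8 to 24 h it fell to 33.8% of its level. The fall at 1 h (−2.63 ± 0.69, adjusted p = 0.00252) rested on these few counts and was lost without replicate 3, the library with 16 counts at 0 h (−1.94, adjusted p = 0.0816). *Mmp3* and *Mmp10* share 65 of their 75-base words, 3.76% and 3.94% of each, so few reads could be assigned to either.

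The gelatinase genes differed from each other. *Mmp9* was at 0.761, 0.412 and 0.798 CPM in NT at 0 h and at 1.76, 1.97 and 2.34 CPM at 4 h, with no overlap, a log2 change of 1.63 ± 0.25 (adjusted p = 3.82e-06). From 4 to 8 h it fell to 49.8% of its level, and its change from 0 h at 8 h missed the threshold (0.62 ± 0.27, adjusted p = 0.0588). At 24 h it was called at 0.89 ± 0.26, which was lost without replicate 2 (0.59, adjusted p = 0.152). *Mmp2*, the other gelatinase, was at 18.6 to 20.3 CPM at 0 h and 13.7 to 15.5 CPM at 8 h, which did not overlap (−0.41 ± 0.08, adjusted p = 0.000118, a change under the fold threshold).

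*Mmp14* moved little in proportion but carried most of the transcripts of the 7 MMP members. It was at 332, 325 and 323 CPM in NT at 0 h, 534, 534 and 495 CPM at 2 h and 226, 227 and 209 CPM at 24 h. The 2 h libraries were all above, and the 24 h libraries all below, those of 0 h. The change was 0.67 ± 0.04 at 2 h (adjusted p = 2.32e-12), the only time point called; it was 0.56 under upper-quartile scaling and 0.37 on the TPM scale, both under 1.5-fold. At 24 h it was −0.57 ± 0.04 from the counts, just short of 1.5-fold. In TPM *Mmp14* averaged 250 in NT at 0 h and 154 at 24 h, a fall of more than 1.5-fold. Which time points pass the fold threshold thus depends on the scale.

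*Mmp19*, an MMP that cuts basement membrane components, was the late member. It was at 4.73, 4.37 and 4.21 CPM in NT at 0 h, 7.06, 7.45 and 7.67 CPM at 8 h and 19.9, 21.0 and 19 CPM at 24 h. Before that it was lower, at 3.02 to 3.78 CPM at 2 h and 3.14 to 3.63 CPM at 4 h, all below 0 h. From the counts this fall was within 1.5-fold (−0.38 ± 0.12 at 4 h, adjusted p = 0.00847). In TPM the means fell by more than 1.5-fold, from 3.63 at 0 h to 2.32 at 2 h and 2.28 at 4 h. From 0 to 8 and 24 h values rose without overlap, by 2.17 ± 0.09 on the log2 scale from 0 to 24 h (adjusted p = 3.64e-16). *Mmp19* shares 789 exonic bases with *Tmem198b* on the opposite strand, whose counts reached 524, and 23.2% of its 75-base words occur in an overlapping gene. The counting disregarded strand by its default, so reads of the pair in that stretch cannot be told apart and the level of *Mmp19* is uncertain.

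Among the inhibitors, *Timp1* and *Timp3* rose with different timing. *Timp1* was at 124, 118 and 122 CPM in NT at 0 h, 284, 269 and 294 CPM at 2 h, 797, 742 and 800 CPM at 8 h and 539, 496 and 476 CPM at 24 h. In CPM *Timp1* was above the 0 h libraries in every NT library from 1 h on. In TPM the 1 h libraries (306, 298 and 326) lay on both sides of those at 0 h (322, 314 and 322). The change in *Timp1* was 2.69 ± 0.05 at 8 h (6.44-fold, adjusted p = 8.15e-23) and 2.05 ± 0.05 at 24 h. *Timp3*, which is held in the matrix and also inhibits aggrecan-cutting proteases, was at 1016, 1027 and 952 CPM at 0 h, 3104, 3068 and 3135 CPM at 2 h and 1119, 1156 and 1021 CPM at 24 h. It was back within reach of its starting level by the last time point, where 1 library lay among those of 0 h. Its change was 1.01 ± 0.05 at 1 h, 1.63 ± 0.05 at 2 h (3.10-fold, adjusted p = 3.37e-19), 1.38 ± 0.05 at 4 h and 0.14 ± 0.05 at 24 h. *Timp3* shares 1733 exonic bases with *Syn3* on the opposite strand, whose highest count was 65 against at least 21460 for *Timp3*. Of the 75-base words of *Timp3*, 20.6% occur in *Syn3*, so the level of *Timp3* is uncertain as well. *Timp2* was the steadiest inhibitor at 929 to 1542 CPM in NT, with changes from −0.23 ± 0.04 at 24 h to 0.34 ± 0.04 at 2 h.

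**Figure D3:**
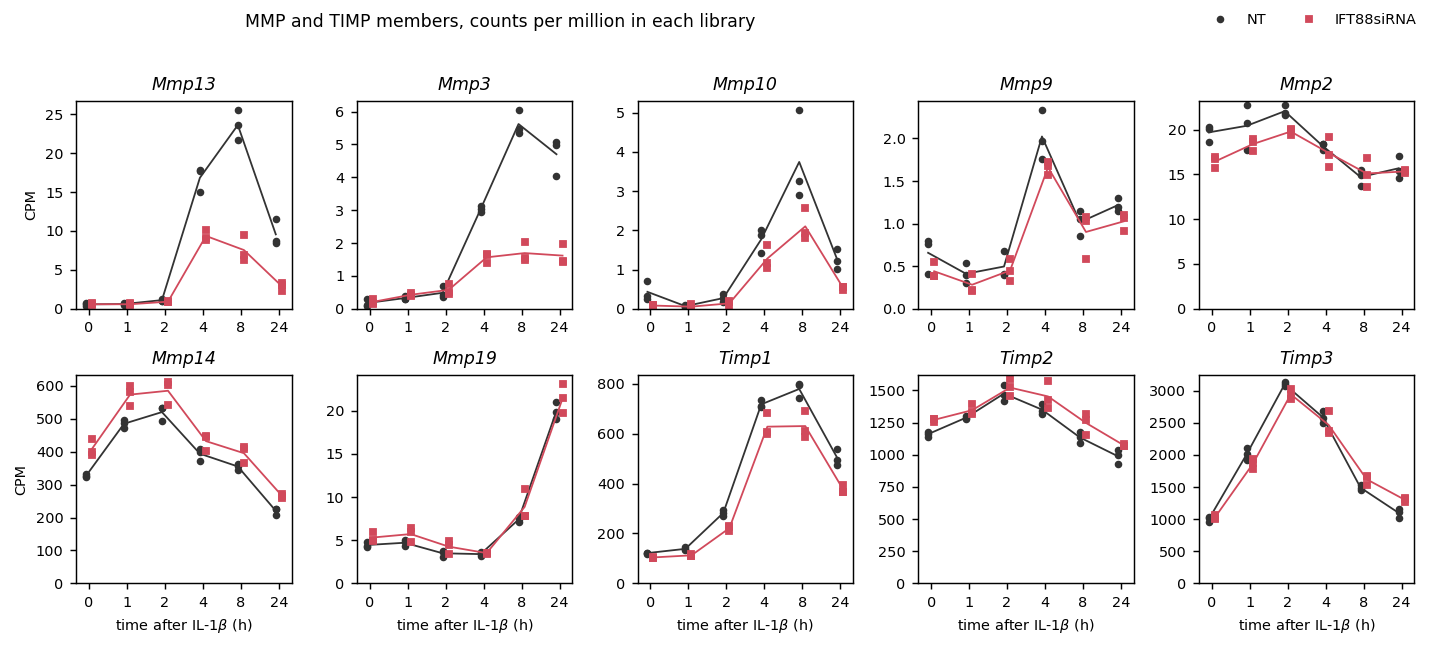
CPM of the 10 members in each library (points) with the mean of 3 replicates (lines), for NT (circles) and IFT88siRNA (squares) at the 6 time points; these are evenly spaced and each panel has its own axis from 0. *Mmp13* and *Mmp3* are lower in every IFT88siRNA library than in every NT library from 4 h on.

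In IFT88siRNA the same 8 members changed with IL-1β, where 48.2% of 16129 genes were called. By time point there were 2 of 10 at 1 h (15.1% of all genes), 3 at 2 h (25.6%), 7 at 4 h (29.3%), 7 at 8 h (17.6%) and 7 at 24 h (14.2%). *Mmp13* rose by 4.0 ± 0.21, 3.68 ± 0.21 and 2.29 ± 0.24 at 4, 8 and 24 h on the log2 scale, and *Mmp3* by 2.88 ± 0.31, 3.0 ± 0.30 and 2.90 ± 0.30. *Mmp10* rose by 3.90 ± 0.44, 4.60 ± 0.39 and 2.62 ± 0.49 from a 0 h level of 3, 3 and 1 counts. *Timp1* rose by 2.60 ± 0.06 at both 4 and 8 h. *Mmp14* was called lower at 24 h (−0.62 ± 0.06, adjusted p = 8.87e-09), and *Mmp19* was lower at 4 h (−0.60 ± 0.16) and higher at 24 h (2.01 ± 0.13).

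**Figure D4:**
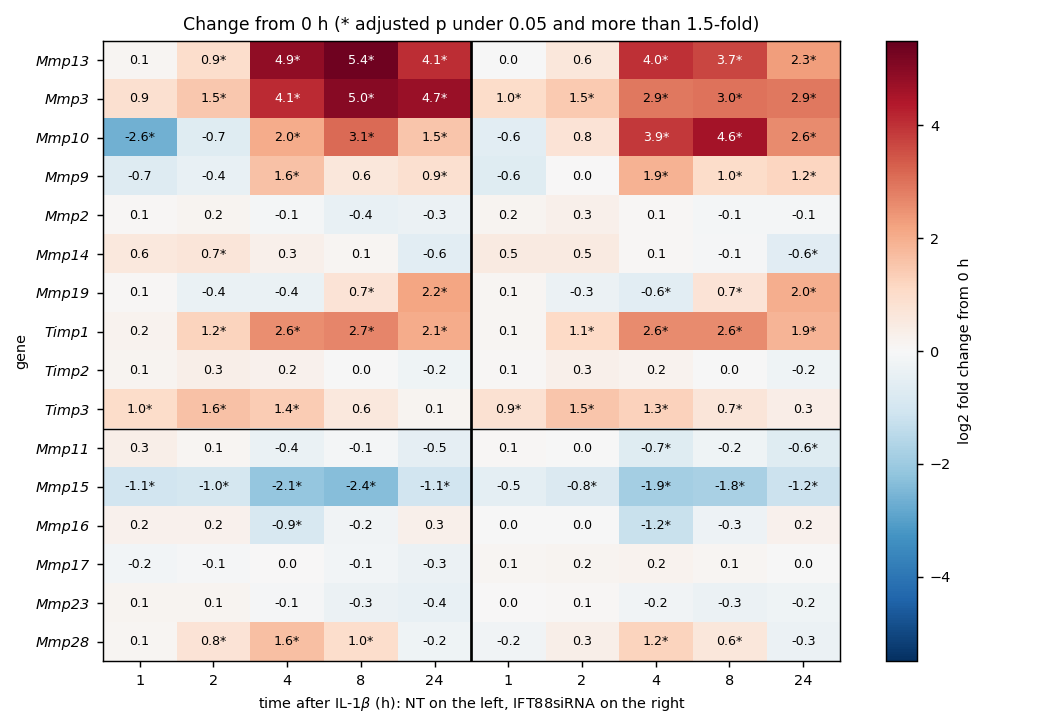
Log2 fold change from 0 h at each of the 5 later time points in NT (left) and IFT88siRNA (right) for the 10 members and, below the line, 6 other MMP genes that passed the filter on low counts; asterisks mark calls. The largest changes are those of *Mmp13* and *Mmp3* in NT at 8 h, 5.37 and 5.0.

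Cells given IFT88siRNA had lower *Mmp3* and *Mmp13* than NT cells at 4, 8 and 24 h, and lower *Mmp10* at 24 h, while no member was called higher. Up to 2 h none was called by edgeR among the 8 members tested at 0 h (2.23% of all genes), nor among 7 at 1 h (2.66%) and 8 at 2 h (0.496%), since *Mmp3*, *Mmp10* or *Mmp9* had too few counts there to pass the filter. At an unadjusted p under 0.05 there were 5, 3 and 3 members at these times, beside 32.1%, 32.4% and 17.2% of all genes, and DESeq2 called none. At 4 h 2 of 10 members were lower (0.399% of all genes), at 8 h 2 of 10 (0.613%) and at 24 h 3 of 10 (0.598%). With the 6 time points tested together, 3 of 10 were called against 5.19% of 16710 genes. The median log2 difference over the members was −0.14 at 4 h, −0.086 at 8 h and −0.15 at 24 h, where members of both directions offset each other, and the median of all genes lay near 0. All 3 IFT88siRNA libraries were below all 3 NT libraries for 4 of 10 members at 8 h and 5 of 10 at 24 h, as they were for 10.8% and 13.6% of all genes tested. They were all above for 2 of 10 members at 8 h (14% of all genes) and 3 of 10 at 24 h (12.9%). At 0 h, without IL-1β, 3 members were below (17.4%) and 3 above (17.9%).

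*Mmp13* stood at 17.8, 15.0 and 17.6 CPM in NT against 8.85, 9.05 and 10.2 CPM in IFT88siRNA at 4 h. At 8 h it stood at 25.5, 21.7 and 23.6 CPM against 9.52, 6.27 and 6.86 CPM. At 24 h it was 11.6, 8.70 and 8.43 CPM against 3.29, 2.30 and 3.11 CPM. All 3 IFT88siRNA libraries were below all 3 NT libraries at each of these times, whereas at 0, 1 and 2 h the values interleaved. At 4 h the IFT88siRNA level was 55.6% of NT (−0.85 ± 0.10, adjusted p = 0.000124). It was 31.3% of NT by 8 h (−1.68 ± 0.13, adjusted p = 7.26e-05), and by 24 h 29.7% (−1.75 ± 0.15, adjusted p = 3.33e-06). At 0 h the difference was 0.03 ± 0.33.

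For *Mmp3* the counts at 4 h were 55, 64 and 57 in NT against 36, 28 and 39 in IFT88siRNA. They were 112, 137 and 148 against 33, 59 and 45 at 8 h. At 24 h they were 133, 109 and 150 against 50, 59 and 45. The groups did not overlap at any of these times. At 1 h all 3 IFT88siRNA libraries (9, 13 and 10 counts) lay above all 3 NT libraries (7, 7 and 6) in CPM. These counts were too few to be tested, and 19.1% of all genes tested at 1 h lay that way. At 4 h *Mmp3* was at 51.8% of its NT level (−0.95 ± 0.19, adjusted p = 0.00944). By 8 h it was at 30.1% (−1.73 ± 0.16, adjusted p = 0.000226), and by 24 h at 33.6% (−1.57 ± 0.16, adjusted p = 2.1e-05). The 4 h call was lost without replicate 1 (−0.98, adjusted p = 0.183) or replicate 3 (−0.99, adjusted p = 0.0516). On the log2(TPM + 1) scale with limma, the 4 h differences of *Mmp13* and *Mmp3* missed the threshold (adjusted p = 0.107 and 0.0714), while both genes were called at 8 and 24 h. Without the filter on TPM none of the 3 genes was called at 4, 8 or 24 h, and with a pseudocount of 0.1 the calls lost were *Mmp13* at 8 h (adjusted p = 0.0509) and *Mmp3* at 24 h (0.0572), beside both at 4 h.

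*Mmp10* was at 5.05, 2.91 and 3.26 CPM in NT and 2.57, 1.80 and 1.93 CPM in IFT88siRNA at 8 h. At 24 h it was at 1.53, 1.23 and 1.02 CPM against 0.554, 0.480 and 0.550 CPM. The groups were apart at both times, and at 4 h they overlapped. At 24 h the difference was −1.26 ± 0.26 (41.8% of NT, adjusted p = 0.00554), and this call was lost without replicate 2 (−1.20, adjusted p = 0.120). At 8 h it was −0.85 ± 0.23 with an adjusted p of 0.0601 in the 6 libraries of that time, and −0.84 ± 0.22 with 0.0108 when all 36 libraries were fitted together. At 0 h the joint fit gave −2.32 ± 0.57 (adjusted p = 0.00556), on 6, 8 and 16 counts in NT against 3, 3 and 1.

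The inhibitor *Timp1* was also lower, but within 1.5-fold at all 6 time points. At 24 h it was at 539, 496 and 476 CPM in NT against 364, 368 and 395 CPM in IFT88siRNA, with no overlap. The difference ran from −0.20 ± 0.05 at 4 h (adjusted p = 0.0334) to −0.43 ± 0.05 at 24 h (adjusted p = 0.00014), and its adjusted p was under 0.05 at all 6 time points, 0 h included. *Mmp14* lay on the other side of 0 with differences of 0.13 ± 0.05 at 4 h to 0.32 ± 0.04 at 0 h, and adjusted p under 0.05 at 0, 1 and 24 h. *Mmp2* was lower at 0 h (−0.26 ± 0.07, adjusted p = 0.00817) without reaching 1.5-fold, and *Timp3* was higher at 24 h (0.24 ± 0.05, adjusted p = 0.0111), also within it. The differences of *Mmp19* (0.04 ± 0.15 to 0.28 ± 0.17), *Mmp9* (−0.56 ± 0.33 to −0.19 ± 0.29) and *Timp2* (0.04 ± 0.05 to 0.13 ± 0.03) were small beside the 1.5-fold threshold or their errors.

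**Figure D5:**
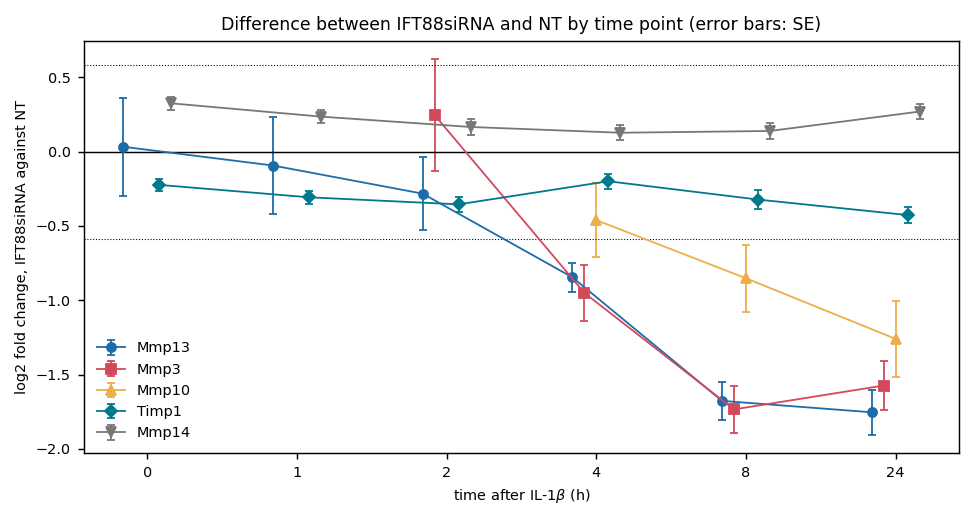
Log2 fold change of IFT88siRNA against NT at each time point (points, with SE as bars; 3 libraries against 3) for *Mmp13*, *Mmp3*, *Mmp10*, *Timp1* and *Mmp14*; dotted lines mark 1.5-fold, and genes too low to be tested at a time point have no point there. *Mmp13* and *Mmp3* are at −1.68 and −1.73 at 8 h, while *Timp1* stays above −0.5 and *Mmp14* above 0.

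The change from 0 h itself differed between the siRNA groups for *Mmp3* and *Mmp13*, 2 of 10 members, with the 5 time points tested together in all 36 libraries (1.2% of 16710 genes). The largest difference in response was −2.00 for *Mmp3*, at 8 h (adjusted p over the 5 time points = 7.26e-05), and −1.78 for *Mmp13*, at 24 h (7.60e-05). At single time points, 2 of 10 were called at 8 h (0.275% of all genes), *Mmp3* (−2.00 ± 0.51, adjusted p = 0.0425) and *Mmp13* (−1.69 ± 0.38, 0.0161). At 24 h 1 of 10 was called (0.132%), *Mmp13* (−1.78 ± 0.39, 0.0237). All 3 of these single calls were lost when any 1 replicate was left out, whereas the tests over the 5 time points kept both genes. The response of *Mmp10* was not called different (1.48 ± 0.62 at 8 h, adjusted p = 0.386). This difference is taken from 0 h counts of 3, 3 and 1 in IFT88siRNA against 6, 8 and 16 in NT. *Timp3* had an adjusted p of 0.00372 over the 5 time points with no difference over 0.21.

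The summed level of the leukocyte and macrophage markers was 39.6 to 44.2 TPM in NT and 34.0 to 36.4 TPM in IFT88siRNA at 8 h, and 45.8 to 50.0 TPM against 36.1 to 39.3 TPM at 24 h, from 20.6 to 24.6 TPM and 21.0 to 21.8 TPM at 0 h. The rise was that of *Cd14* (8.72 to 31.9 TPM on average from 0 to 8 h in NT), while *Cd68* went from 10.7 to 6.68 TPM and *Lyz2* from 2.25 to 1.79 TPM. At 8 h *Lyz2* averaged 2.0 TPM in IFT88siRNA. Of the 8 listed, 5 were under 1 TPM in every library, *Ptprc* among them. The neutrophil list, of which *S100a8* made up nearly all, was at 16.8 to 24.8 TPM in NT and 10.5 to 16.9 TPM in IFT88siRNA at 24 h, and *Mpo* had no count. The chondrocyte list summed to 82.1 to 88.0 TPM at 0 h in NT, 151 to 162 TPM at 2 h and 30.5 to 32.6 TPM at 24 h, against 38.3 to 39.0 TPM in IFT88siRNA at 24 h. Its genes did not move as one, since *Comp* averaged 9.78 TPM at 0 h and 14.1 TPM at 8 h in NT and *Col11a1* 45.2 and 33.6 TPM. The fibroblast list summed to 6116 to 6391 TPM at 0 h, 7814 to 8105 TPM at 2 h and 3587 to 3966 TPM at 24 h in NT, and to 3847 to 4086 TPM at 24 h in IFT88siRNA. Fibroblast genes did not move as one either. From 0 to 8 h in NT *Vim* went from 2177 to 1527 TPM on average, but *Fn1* from 1471 to 1694 and *Col3a1* from 140 to 235. The part of these genes in the differences of the MMPs was not tested, and in bulk RNA fewer cells of a type and less RNA per cell cannot be told apart.

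Over the 12 condition means of log2 CPM, *Mmp13* ran most like *Mmp3* and *Timp1* among the members (Pearson r of 0.95 and 0.96), and *Mmp3* and *Mmp10* had an r of 0.85. These points share libraries and the same time course, so they describe the shape of the profiles only. Among all 16710 genes tested, the profiles nearest to *Mmp13* were those of *Gm42555* (r = 0.990), *Il1f6*, an IL-1 family cytokine gene (0.984), and *Noc4l* (0.975). Those nearest to *Mmp3* were *Pdpn*, the gene of the membrane glycoprotein podoplanin (0.964), *Slc26a4* (0.964) and *Vdac3-ps1* (0.962), and those nearest to *Mmp10* were *Rrp15*, *Ebna1bp2* and *Rwdd4a* (0.984 to 0.987). *Timp1* ran with *Gm35048*, *Fstl1* and *St3gal1* (0.980 to 0.987), *Timp2* with *Cavin1*, *Cap1* and *Sfxn3* (0.983 to 0.989) and *Timp3* with *Zyx*, *Elovl1* and *Kctd5* (0.981 to 0.987). *Mmp14* was nearest to *Calml4*, *Pltp* and *Chrdl1* (0.987 to 0.988), *Mmp19* to *Nsg1*, *Gys1* and *Cda* (0.973 to 0.991), *Mmp9* to *Il10rb*, *Nfe2l2* and *Naa25* (0.972 to 0.980) and *Mmp2* to *Rc3h2*, *Tprg* and *Emp3* (0.951 to 0.952).

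Of 17 other MMP and TIMP genes, 6 passed the filter in the NT time course and 3 were called with the time points together, the same share as over all genes (50%). *Mmp15*, a membrane-type MMP, ran against the inducible members: it was at 10.5 ± 0.640 TPM in NT at 0 h and 1.97 ± 0.201 TPM at 8 h, a change of −2.36 ± 0.11 (adjusted p = 7.07e-15). *Mmp28* (epilysin) rose by 1.64 ± 0.09 at 4 h, and *Mmp16*, also membrane-bound, fell by 0.88 ± 0.07 at 4 h. *Mmp11*, *Mmp17* and *Mmp23* were not called in NT. None of the 6 was called between the siRNA groups at any single time point by edgeR or DESeq2. Each time 2 or 3 of them had an unadjusted p under 0.05, beside 17.2% to 32.4% of all genes by time point. The response of *Mmp15* differed over the 5 time points (0.59 at most, adjusted p = 0.00778). *Mmp11* (stromelysin-3) lay higher in IFT88siRNA at all 6 time points within 1.5-fold, from 0.24 ± 0.05 at 1 h to 0.52 ± 0.05 at 0 h (adjusted p = 1.3e-07), with 4 h the time point where its adjusted p was over 0.05 (0.0814). *Mmp12*, macrophage elastase, had 4 to 5 counts in each NT library at 8 h and 0 to 2 in each IFT88siRNA library. *Mmp7* had 2 to 5 counts in each library of both groups at 24 h. *Mmp1a*, *Mmp1b*, *Mmp8*, *Mmp20*, *Mmp21* and *Timp4* had no more than 3 counts in any library, and *Mmp24*, *Mmp25* and *Mmp27* were also too low to be tested there.

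Genes that activate, bind or restrain MMPs were listed apart (22 genes, 17 of them tested). In NT 12 of the 17 were called with the time points together, 9 higher and 3 lower, beside 50% of all genes. *Plau* (urokinase) rose by 2.14 ± 0.05 at 2 h and its receptor *Plaur* by 2.80 ± 0.05. *Lcn2*, whose protein binds MMP9, was at 1.13 TPM at 0 h and 737 TPM at 8 h on average, a log2 change of 9.45 ± 0.17. *Reck*, a membrane inhibitor of MMPs, rose by 0.63 ± 0.05 at 1 h and was lower by 24 h (−0.75 ± 0.05). Between the siRNA groups, *Rarres1* was higher in IFT88siRNA at 0 h (0.73 ± 0.09, adjusted p = 2.85e-06). No gene of the list was called at another time point by edgeR or DESeq2. There 6 to 11 had an unadjusted p under 0.05, beside 17.2% to 32.4% of all genes by time point.

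Most of the listed transcription factors known to act on MMP promoters had risen by 1 h. Of 25 listed, 20 were called at 1 h in NT, 18 of them higher (9.22% of all genes tested), and the median over the list was 1.74 against −0.0088 over all genes. No MMP was called higher at 1 h, though *Mmp14* was at 474 to 495 CPM against 323 to 332 CPM at 0 h, 1.48-fold and just short of the fold threshold. The AP-1 genes *Fosb*, *Junb*, *Fos* and *Fosl2* rose by 7.65 ± 0.09, 3.99 ± 0.07, 3.62 ± 0.08 and 3.02 ± 0.04 at 1 h. *Nfkbiz*, an NFκB co-regulator, rose by 5.52 ± 0.05. *Cebpd* was highest at 4 h, at 4.2 ± 0.08. *Elf3*, an ETS factor, had 0 to 85 counts in any library, so its fitted changes are not given. Between the siRNA groups, *Atf3* (−1.03 ± 0.07) and *Fosl1* (−0.68 ± 0.05) were lower in IFT88siRNA at 0 h, *Egr1* (−0.61 ± 0.09) and *Fos* (−0.60 ± 0.10) at 4 h and *Fosl1* again at 24 h (−0.59 ± 0.05). At 1, 2 and 8 h none of the list was called by edgeR or DESeq2. At an unadjusted p under 0.05 there were 12, 12 and 17, beside 32.4%, 17.2% and 21.1% of all genes. The order in time describes these levels only, and a part of these genes in the change of any MMP was not tested.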

How the data were processed

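Poly(A) RNA from 36 libraries was measured by paired-end RNA-seq. The authors aligned reads to GRCm38 with HISAT2 2.1.0, counted reads per gene with featureCounts (Subread 1.6.3, default parameters) and deposited these counts unnormalised. TPM values per gene, from Salmon 0.9.1, were deposited as well. Groups came from the sample labels. The members and gene lists were chosen with earlier results of these data known.

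Counts were scaled by TMM, filtered with filterByExpr in each comparison and tested over all genes with edgeR 4.0.16 (quasi-likelihood F-test, two-sided, Benjamini-Hochberg adjustment) in R 4.3.3. A call needed an adjusted p under 0.05 and a fold change over 1.5. SEs were derived from the log2 fold change and its F-statistic. IFT88siRNA and NT were compared in 6 libraries per time point, IL-1β in the 18 libraries of each siRNA group, and responses in all 36. Levels per length were not tested. Likeness was Pearson r over 12 condition means of log2 CPM (prior count 2). Depth was 19337022 to 38304127 counts per library; SEs and SDs include the spread between replicates. Replicates differed by more than counting noise (chi-square over its degrees of freedom 1.65 to 10 over 36 pairs). Gene positions came from GENCODE for GRCm38 and promoters from RefSeq (GRCm38.p6).

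Named genes were the members, *Ift88*, the 3 genes most like each member, and from each of 3 lists the genes past both thresholds (6 at most per comparison, by fold), of which examples are given. The alternatives were DESeq2 1.42.0, DESeq2 size factors, upper-quartile scaling, no filter beyond 1 count and no fold threshold. Further ones were the replicate number as a block, leaving out each replicate and 36 libraries in 1 model. Others were limma 3.58.1 for log2(TPM + 1) of genes at 1 TPM or more in 3 libraries, a pseudocount of 0.1 and no TPM filter. RPKM from counts was used for the ratio and for the shares of the MMP sum. Steps were tested on simulated data. ImpulseDE2, the authors' time-course tool, was not used here. The values of 1 gene of the list of activators, inhibitors and receptors are not reported here.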

Additional observations from a re-analysis of the deposited data

Results flagged for a closer look

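*Mmp3* and *Mmp13* were picked out because their change from 0 h differed between the siRNA groups in a test of the difference itself over the 5 time points after IL-1β. For *Mmp3* the largest difference in log2 change (IFT88siRNA minus NT) was −2.00, at 8 h, where the gene rose by 5.0 in NT and by 3.0 in IFT88siRNA. For *Mmp13* it was −1.78, at 24 h, where the gene rose by 4.06 in NT and by 2.29 in IFT88siRNA. Both are lower in IFT88siRNA in 3 of 3 libraries at 4, 8 and 24 h. The 0 h counts behind these changes are low, 2 to 9 per library for *Mmp3* and 8 to 22 for *Mmp13*. Groups of 3 are too small for a check of single libraries that stand apart.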

How the results depend on the processing

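Of 60 gene values followed, 655 combinations with an alternative gave 585 with the same call, 70 that lost it and 0 that changed direction. DESeq2 size factors and the replicate block changed none of the 60, and DESeq2 gave no adjusted p for 2 of them (*Mmp3* at 4 h and *Mmp10* at 24 h). For members changed by IFT88siRNA, dropping the fold threshold gave 8 with the 6 time points together. By time point it gave 4 at 0 h, 2 at 1 h, 1 at 2 h and 6 at 24 h. The share of all genes under this rule is not given here, so these counts are not a result about the members. At an unadjusted p under 0.05 (edgeR) the shares of all genes were 32.1%, 32.4%, 17.2% and 22.2% at 0, 1, 2 and 24 h. Without the filter, or with all 36 libraries in 1 model, 1 member (*Mmp10*) was called at 0 h. At 4 h DESeq2 called 1 member, and limma called 0 on log2(TPM + 1), 0 with a pseudocount of 0.1 and 0 without the TPM filter. At 8 h the pseudocount of 0.1 gave 1, and without the TPM filter limma called 0 at 8 h and 0 at 24 h. Leaving out 1 replicate gave 1 to 2 members at 4 h, 2 to 3 at 8 h and 2 to 3 at 24 h. The ratio of TIMP to MMP levels from RPKM was 8.89 (NT, 0 h), 16.8 (NT, 8 h), 7.55 (IFT88siRNA, 0 h) and 15.6 (IFT88siRNA, 8 h). The causes of these shifts were not tested. Upper-quartile scaling moved the log2 changes of the listed genes by −0.121 in NT at 4 h relative to the main scaling. Same-numbered replicates correlated at −0.133 to 0.223 over 18 pairs, 2 of them over 0.1, so no pairing by number was seen. With 3 libraries per group these correlations cannot exclude a weak pairing. The replicate block gave 3 members at 8 h in place of 2. Counts under about 10 per library at 0 h limit the size of the *Mmp3* and *Mmp10* folds.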
